A study of Homo sapiens with 9 samples.

Results

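Polycomb repressive complex genes were followed in blood-forming cells made from human embryonic stem cells. The 9 genes were those whose symbols matched the rows EZH1, EZH2, EED, SUZ12, BMI1, CBX2, CBX6, CBX7 and CBX8, out of 21229 genes in the table, and all 9 were among the 16232 genes that passed a filter on low counts. The cells were haematopoietic cells differentiated from H1, an established human embryonic stem cell line, and their RNA was read with a strand-specific kit. There were 3 libraries of CD38+ control cells (CD38 is a surface enzyme), 3 of CD90+ control cells (CD90, a surface protein of stem cells, is encoded by THY1) and 3 of CD90+ cells with GATA2 overexpression, GATA2 being a transcription factor of blood stem and progenitor cells. The series describes its cells as resembling blood stem cells. How GATA2 was overexpressed is not given in the sources used here. No label ties a library to a culture, so p-values measure only the spread between these libraries, which may be technical.

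Polycomb proteins keep developmental genes silent through chromatin. Polycomb repressive complex 2 (PRC2) methylates lysine 27 of histone H3, with EZH2 or its paralog EZH1 as the enzyme and EED and SUZ12 as the subunits the enzyme needs to work. Canonical Polycomb repressive complex 1 (PRC1) reads that mark through a CBX protein and holds BMI1 or its paralog PCGF2 beside a RING-type ubiquitin ligase. EZH2 is typical of dividing cells and EZH1 of cells that divide little, BMI1 is needed for self-renewal of blood stem cells, and CBX7 has been tied to self-renewal and CBX2 and CBX8 to differentiation in mouse blood.

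EZH2 lies on chromosome 7 (148807383 to 148884321, minus strand) and EZH1 on chromosome 17 (42700275 to 42745049, minus strand; GRCh38, GENCODE release 29). Stretches of their promoters are shown because the genes moved in opposite directions with GATA2 overexpression, and the windows cover the same distances, 150 to 31 bases before the start in RefSeq (GRCh38.p14, minus strand). Capitals mark every match to CCAAT or to an E2F-type motif, which was searched as TTTCCCGC, TTTGGCGC, TTTCGCGC or TTTGCCGC, in each case on both strands.
EZH2, chr7:148884322-148884441: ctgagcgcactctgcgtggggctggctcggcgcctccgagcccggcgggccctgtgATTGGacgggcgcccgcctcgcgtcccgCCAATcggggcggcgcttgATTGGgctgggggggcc
EZH1, chr17:42745071-42745190: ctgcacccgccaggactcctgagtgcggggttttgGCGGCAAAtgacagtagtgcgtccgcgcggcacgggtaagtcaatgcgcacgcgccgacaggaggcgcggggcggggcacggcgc
The EZH2 stretch holds 3 CCAAT matches and no match to the E2F letters. The EZH1 stretch holds 1 match to the E2F letters and 0 to CCAAT. Over the whole 250 bases before the start EZH2 had 4 CCAAT matches, as many or more than which were found in 0.93% of 27305 promoters, while at least 1 CCAAT was found in 33.0% and at least 1 E2F-type match in 2.79%. SUZ12 also had 1 E2F-type match. None of the promoters of the 7 members with an entry held AGATAA or TGATAA, which are among the letters bound by GATA factors. Of all promoters 14.9% held them. Other GATA-type letters were not searched. These are matches of letters, not sites of binding.

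Levels are given as CPM, counts relative to a library total scaled by TMM factors, with mean ± SD over 3 libraries. EZH2 was at 56.8, 55.5 and 55.8 CPM in the CD38+ control libraries, at 67.3, 65.5 and 64.1 in the CD90+ control libraries and at 93.9, 100.1 and 89.3 in the GATA2 overexpression CD90+ libraries. The groups did not overlap, and the order was the same as the order of their means of 56.0 ± 0.695, 65.6 ± 1.62 and 94.4 ± 5.42 CPM. EZH1 was at 21.5, 19.9 and 18.5 CPM in CD38+ control, at 21.7, 25.5 and 25.4 in CD90+ control and at 14.3, 13.6 and 15.1 with GATA2 overexpression. All 3 overexpression libraries lay below the other 6, and the lowest CD90+ control library was close to the highest CD38+ control library.

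**Figure D1:**
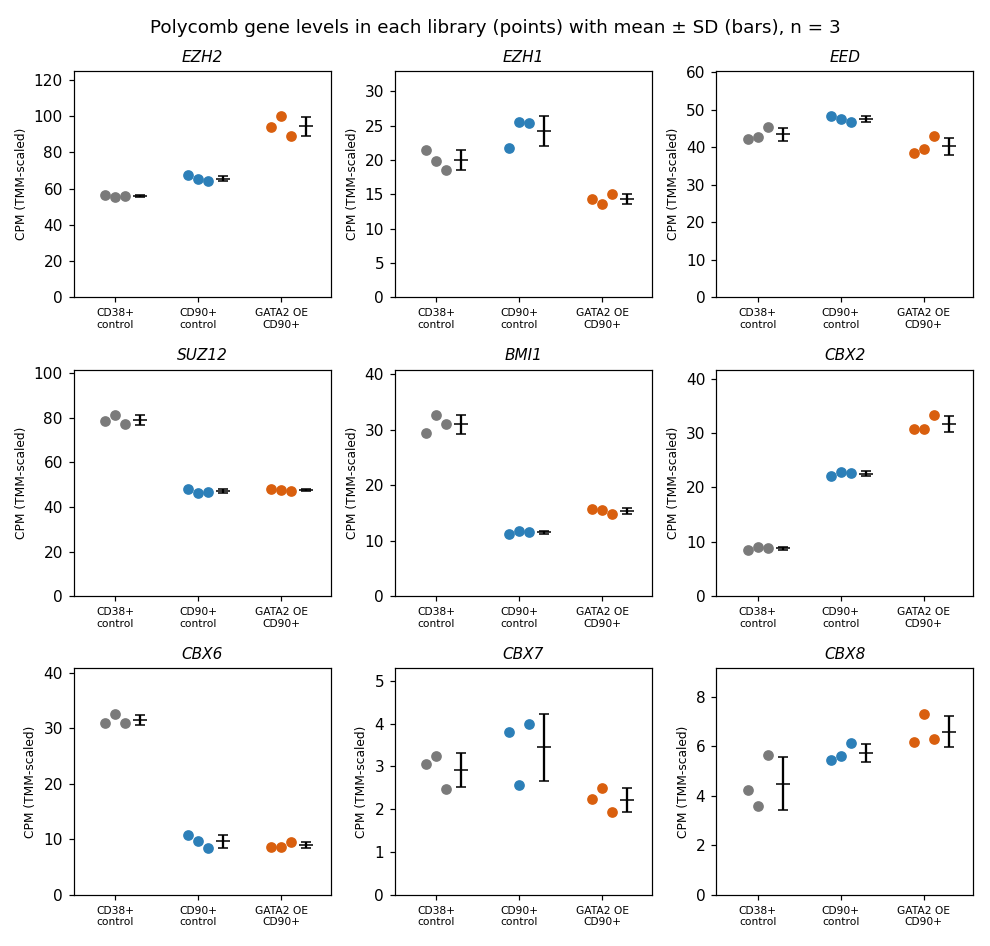
CPM scaled by TMM (vertical axes, each from 0) of the 9 Polycomb genes in each library (points) of the 3 groups, with the mean and SD of 3 libraries beside the points. EZH2 and CBX2 are highest in the GATA2 overexpression CD90+ libraries, EZH1 is lowest there, and SUZ12, BMI1 and CBX6 are highest in CD38+ control.

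The EZH2 to EZH1 ratio, with each count divided by the gene's exon length so that the genes can be compared, averaged 4.35 ± 0.287 for CD38+ control, 4.22 ± 0.497 for CD90+ control and 10.2 ± 1.12 for GATA2 overexpression CD90+ cells. Per library it was 4.08, 4.31 and 4.65 in CD38+ control, 4.79, 3.96 and 3.90 in CD90+ control and 10.1, 11.4 and 9.15 with overexpression. The control groups overlapped and the overexpression libraries lay above all 6 of them. This ratio is taken within a library and does not depend on how libraries are scaled. An exact permutation test over the 3 groups (two-sided, 1680 assignments of the libraries) gave p = 0.0214.

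Between GATA2 overexpression and control CD90+ cells the ratio differed 2.42-fold (log2 difference 1.28 ± 0.132 SE), and between GATA2 overexpression and CD38+ control cells 2.35-fold (1.23 ± 0.106 SE). Each had an exact two-sided permutation p = 0.1 (0.15 after Benjamini-Hochberg adjustment over 3 pairs), the smallest that 3 against 3 libraries allow. Control CD90+ and CD38+ cells differed by -0.048 ± 0.11 (SE) on the log2 scale (exact permutation p = 0.6, adjusted 0.6), a difference smaller than its error. In raw counts, with no division by length, the ratios were 2.81, 2.73 and 6.61 in the same order of groups.

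**Figure D2:**
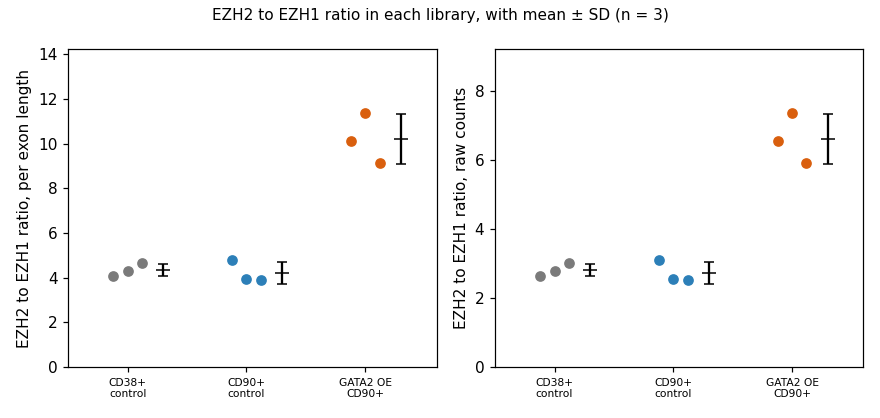
EZH2 to EZH1 ratio (vertical axes, from 0) in each library (points) with mean and SD of 3 libraries, per exon length on the left and as raw counts on the right. The 3 GATA2 overexpression CD90+ libraries lie between 9.15 and 11.4 per exon length, and the 6 control libraries between 3.90 and 4.79.

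Both genes moved between the CD90+ groups. Relative to control CD90+ cells, EZH2 rose 1.44-fold with GATA2 overexpression (log2 fold change 0.52 ± 0.0407 SE, adjusted p = 3.09e-09, edgeR's quasi-likelihood test) and EZH1 fell 1.69-fold (-0.76 ± 0.0797 SE, adjusted p = 1.69e-07). In control cells both were higher in the CD90+ than in the CD38+ fraction by similar amounts, EZH2 by 1.17-fold (adjusted p = 8.81e-05) and EZH1 by 1.21-fold (adjusted p = 0.00359). Scaled by library size only, the changes with overexpression were 0.28 for EZH2 and -1.01 for EZH1, and those between the control fractions 0.64 and 0.69, with the same directions. Per exon length the summed level of the pair was 15.2 ± 0.347, 18.0 ± 0.16 and 22.9 ± 1.09 CPM per kilobase in the 3 groups, and EZH2 made up 81.3 ± 0.997%, 80.7 ± 1.74% and 91.0 ± 0.889% of it.

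Genes of DNA replication and mitosis moved with EZH2 between the CD90+ groups, but not between the control fractions. With GATA2 overexpression 23 of 25 G1/S genes and 18 of 20 G2/M genes rose against control CD90+ cells, and 0 and 1 fell, the latter being MKI67 (log2 fold change -0.35). With library size only, 20 and 15 rose and 2 and 3 fell. From CD38+ to CD90+ control cells, where EZH2 rose 1.17-fold, 11 G1/S genes rose and 13 fell, and 2 G2/M genes rose and 17 fell (14 and 11, and 9 and 9, with library size only). The summed G2/M level ran from 4232 to 4261 CPM with overexpression, from 2361 to 2382 in CD90+ control and from 3424 to 3458 in CD38+ control. The summed G1/S level ran from 3457 to 3504 CPM in the overexpression libraries, from 2132 to 2142 in CD90+ control and from 2533 to 2576 in CD38+ control. Counts of EZH2 came to 2.72 ± 0.169% of the summed G1/S counts with overexpression, 3.07 ± 0.0718% in CD90+ control and 2.19 ± 0.0439% in CD38+ control. For EZH1 the percentages were 0.412 ± 0.0194, 1.13 ± 0.104 and 0.782 ± 0.0652. Of all tested genes 38.0% were called higher and 39.6% lower between the CD90+ groups, and 41.1% and 39.3% between the control fractions. Between overexpression and CD38+ control cells 43.3% were higher and 39.9% lower. List counts here and below are to be set beside these shares. The part of cell division in the EZH2 and EZH1 changes was not tested.

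Markers of other cell types moved in the same libraries. Macrophage markers were lower with overexpression, with a summed level over 16 genes of 827 to 890 CPM against 3834 to 3887 in CD90+ control and 5066 to 5144 in CD38+ control, and none of the 16 was at 0 counts in all libraries of a group. Of the 15 that were tested, 14 fell and 0 rose with overexpression (median log2 fold change -5.2 against CD90+ control), a larger fall than that of the sums. Most of the overexpression sum was LYZ (310 CPM) and CTSB and CSF1R (287 and 228 CPM), the last 2 named after their values were seen. C1QC, in contrast, was at 138 CPM in CD90+ control and 0.39 with overexpression. From CD38+ to CD90+ control cells 6 rose and 8 fell (7 and 6 with library size only), so the sums hide a split. C1QB rose 171-fold and TIMD4 53.4-fold there, while VSIG4 fell 11.7-fold and CD14 fell 11.6-fold. Of 12 tested mast cell and basophil markers 2 rose and 9 fell from CD38+ to CD90+ control cells, and 9 rose and 2 fell with overexpression. Their summed level over 13 genes was 6119 to 6357 CPM in CD38+ control, 275 to 283 in CD90+ control and 846 to 885 with overexpression, with CMA1 at 0 counts in CD38+ control and with overexpression. That sum holds GATA2 itself, at 87.3 CPM in control and 376 in overexpression CD90+ cells, and CLC, named after its values were seen, at 76.6 and 327 CPM, and these made up most of its rise, while HPGDS and IL1RL1 fell (log2 fold changes -1.56 and -1.25). Of 13 tested erythroid markers 11 rose and 2 fell from CD38+ to CD90+ control cells, and 2 rose and 10 fell with overexpression. The 2 that rose were the transcription factor genes GATA1 (3.96-fold) and KLF1 (3.72-fold). GATA1 was 2.81-fold lower in CD90+ than in CD38+ control cells. Their summed level over 14 genes was 579 to 587 CPM in CD38+ control, where AHSP was at 0 counts, 1119 to 1141 in CD90+ control and 839 to 923 with overexpression. Of 12 endothelial markers 9 rose and 1 fell from CD38+ to CD90+ control cells (median log2 fold change 2.33), and 6 rose and 4 fell with overexpression (4 and 5 with library size only). Their summed level was 506 to 540 CPM in CD38+ control, where EMCN was at 0 counts, 509 to 521 in CD90+ control and 858 to 903 with overexpression. PECAM1, ESAM and TIE1 made up most of that sum, at 312, 110 and 86.3 CPM in CD38+ control. They were at 178, 110 and 82.5 CPM in CD90+ control and 260, 295 and 152.5 CPM with overexpression. The part of these cell types in the Polycomb gene differences was not tested either. In bulk samples such as these, fewer cells of a type and less RNA per cell cannot be told apart.

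Neither SUZ12 nor EED, the structural subunits of PRC2, was called higher with GATA2 overexpression against control CD90+ cells, where EZH2 rose. Between the control fractions SUZ12 fell where EZH2 rose, and EED had a small rise that depended on single libraries. SUZ12 (chromosome 17, 31937018 to 32001045) was at 78.7, 81.3 and 77.0 CPM in CD38+ control, at 48.1, 46.3 and 46.8 in CD90+ control and at 48.2, 47.6 and 46.97 with GATA2 overexpression. The CD38+ libraries stood well above the other 6, which overlapped. SUZ12 fell 1.68-fold from CD38+ to CD90+ control cells (log2 fold change -0.75 ± 0.0374 SE, adjusted p = 6.73e-12) and was 1.66-fold lower in overexpression than in CD38+ control cells (adjusted p = 8.74e-12). Between the CD90+ groups its log2 fold change was 0.017, with a 95% interval from -0.058 to 0.092 and adjusted p = 0.695. That direction depends on the scaling, since it was -0.23 by library size only (adjusted p = 3.37e-05) and -0.10 with upper-quartile factors (adjusted p = 0.0274).

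EED (chromosome 11, 86244544 to 86278813), which binds the methylated histone and stimulates the enzyme, varied little. It was at 42.3, 42.7 and 45.5 CPM in CD38+ control, at 48.4, 47.6 and 46.9 in CD90+ control and at 38.4, 39.5 and 42.9 with GATA2 overexpression. CD90+ control libraries were the highest, and the other groups overlapped. EED fell 1.18-fold with overexpression against control CD90+ cells (log2 fold change -0.24, adjusted p = 2.72e-04). Its 1.10-fold rise from CD38+ to CD90+ control cells (adjusted p = 0.021) was no longer called without CD38+ control replicate 1 (adjusted p = 0.0771), CD38+ control replicate 2 (0.0692) or CD90+ control replicate 1 (0.0529). The difference between overexpression and CD38+ control cells was a log2 fold change of -0.11 (adjusted p = 0.0494, overlapping libraries), which was lost on leaving out any of the 9 libraries other than CD38+ control replicate 1 or GATA2 overexpression CD90+ replicate 3 (the adjusted p then reached 0.221) and turned to 0.051 with library size only.

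Per exon length, SUZ12 stood at 0.974 ± 0.0329 of the EZH2 level in CD38+ control, 0.495 ± 0.00803 in CD90+ control and 0.349 ± 0.018 with GATA2 overexpression. EED stood at 0.5 ± 0.0231, 0.468 ± 0.00444 and 0.276 ± 0.0296 of EZH2. Within the PRC2 core, EZH2 was thus highest relative to both partners in the overexpression libraries, and no library of that group overlapped either control group on these quotients.

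Of the wider set of PRC2 core and accessory genes, 13 were tested, and 6 rose and 4 fell with GATA2 overexpression against control CD90+ cells (median log2 fold change 0.02, against -0.04 over all tested genes; 6 rose and 7 fell with library size only). MTF2, a subunit that guides PRC2 to unmethylated CpG-rich DNA, rose 2.08-fold to 482 ± 2.89 CPM (adjusted p = 7.73e-17), and RBBP4, a histone-binding subunit shared with other complexes, rose 1.94-fold to 452 ± 3.43 CPM. LCORL also rose, by 1.55-fold, and its relative LCOR fell 1.34-fold. PHF1, which like MTF2 is a Polycomb-like protein, was called lower (2.16-fold, adjusted p = 0.00559), but its libraries overlapped, with 5.62 to 13.99 CPM in control and 3.39 to 5.97 in overexpression CD90+ cells. JARID2, which helps recruit PRC2, was at 60.8 ± 0.502 CPM in control and 60.4 ± 1.43 in overexpression CD90+ cells (adjusted p = 0.838). Between the control fractions 6 rose and 5 fell in CD90+ cells (8 and 4 with library size only). SUZ12, PHF19, RBBP4 and RBBP7 were among those that fell. With TMM, 38.0% of all tested genes were higher and 39.6% lower between the CD90+ groups, and 41.1% and 39.3% between the control fractions. The PRC2 counts are near these shares and are no result about the list.

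The PRC1 genes were looked at next. BMI1 (chromosome 10, 22321211 to 22331484) was at 29.3, 32.6 and 30.9 CPM in CD38+ control, at 11.2, 11.7 and 11.5 in CD90+ control and at 15.7, 15.6 and 14.8 with GATA2 overexpression. No groups overlapped. BMI1 fell 2.69-fold from CD38+ to CD90+ control cells (log2 fold change -1.43 ± 0.0653 SE, adjusted p = 1.94e-12), rose 1.34-fold with overexpression (0.42 ± 0.0669 SE, adjusted p = 2.39e-05), and stayed 2.01-fold lower there than in CD38+ control (adjusted p = 1.78e-10). With library size only the rise was 0.17 (adjusted p = 0.0304).

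In the annotation BMI1 shares 1000 bases, 23.3% of its exon length, with the read-through gene COMMD3-BMI1, and how reads on shared exons were assigned is not given in the sources used here. The upstream gene COMMD3, named after its values were seen, was at 33.3 ± 1.54, 17.1 ± 0.953 and 39.9 ± 1.51 CPM in the 3 groups. It was lower in CD90+ than in CD38+ control cells, as BMI1 was, but in the overexpression cells it was above the CD38+ level (1.20-fold, adjusted p = 4.58e-04). PCGF2, the paralog that can take the place of BMI1, was counted near the limit of detection, at 0.161 ± 0.194, 0.393 ± 0.17 and 0.334 ± 0.159 CPM. Whether these low counts reflect its level or how reads were mapped and assigned was not tested.

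CBX2 and CBX8 are neighbours on chromosome 17 (79778132 to 79787983, plus strand, and 79792132 to 79801683, minus strand), 4148 bases apart. CBX2 was at 8.56, 9.04 and 8.91 CPM in CD38+ control, at 22.1, 22.8 and 22.7 in CD90+ control and at 30.8, 30.8 and 33.4 with GATA2 overexpression. The groups were fully separate. CBX2 rose 2.55-fold from CD38+ to CD90+ control cells (log2 fold change 1.35 ± 0.0638 SE, adjusted p = 3.10e-12) and a further 1.41-fold with overexpression (0.49 ± 0.0586 SE, adjusted p = 8.33e-07). The overall difference between overexpression and CD38+ control cells was 3.58-fold, the largest of the 27 member differences. By library size only the change with overexpression was 0.24 (adjusted p = 0.00124).

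CBX8 was at 4.25, 3.58 and 5.66 CPM in CD38+ control, at 5.46, 5.61 and 6.14 in CD90+ control and at 6.17, 7.31 and 6.28 with GATA2 overexpression. Its libraries rose in the same order of groups as those of CBX2, but neighbouring groups overlapped or nearly did. Only the difference between overexpression and CD38+ control was called (1.46-fold, adjusted p = 0.00442). Between the control fractions the log2 fold change was 0.35 (adjusted p = 0.0521), and without CD38+ control replicate 3, the highest of that group, it was 0.55 (adjusted p = 0.00448). Between the CD90+ groups it was 0.20 (adjusted p = 0.247), with a 95% interval from -0.10 to 0.50.

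CBX6 and CBX7 lie on chromosome 22 (38861450 to 38872314 and 39120167 to 39152674, both minus strand), 247852 bases apart. CBX6 was at 30.98, 32.6 and 30.9 CPM in CD38+ control, at 10.7, 9.72 and 8.48 in CD90+ control and at 8.602, 8.66 and 9.54 with GATA2 overexpression. The CD38+ libraries were all above the rest and the CD90+ groups overlapped. CBX6 fell 3.26-fold from CD38+ to CD90+ control cells (log2 fold change -1.71 ± 0.0848 SE, adjusted p = 6.11e-12) and was 3.53-fold lower in overexpression than in CD38+ control cells (adjusted p = 2.76e-12). Between the CD90+ groups the log2 fold change was -0.11 (adjusted p = 0.263, 95% interval -0.29 to 0.06), and it was -0.36 with library size only (adjusted p = 0.00164).

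CBX7 was the lowest of the 9 genes, with 71 to 198 counts per library. It was at 3.06, 3.24 and 2.48 CPM in CD38+ control, at 3.81, 2.56 and 3.99 in CD90+ control and at 2.25, 2.49 and 1.93 with GATA2 overexpression. The CD90+ groups did not overlap, though CD90+ control replicate 2 came close to the overexpression libraries. CBX7 fell 1.55-fold with overexpression (log2 fold change -0.63 ± 0.197 SE, adjusted p = 0.00792), and the control fractions differed by 0.24 (adjusted p = 0.264, 95% interval -0.14 to 0.62). An antisense gene on the opposite strand overlaps 17.9% of the CBX7 exon length, and whether counting used strand is not given in the sources used here.

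**Figure D3:**
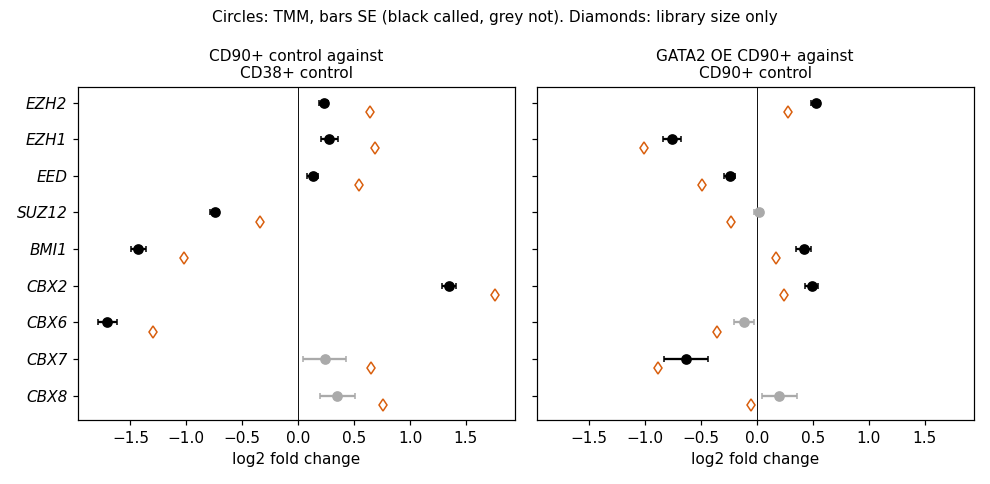
Log2 fold change (horizontal axes) of each gene in CD90+ control against CD38+ control (left) and GATA2 overexpression against control CD90+ cells (right). Circles are TMM-scaled values with SE, black where the adjusted p is under 0.05 and grey otherwise, and open diamonds are values scaled by library size only, which lie to the right of the circles on the left and to the left of them on the right.

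Set against each other per exon length, the 4 CBX genes described here differed in their shares across the groups. CBX2 made up 22.4 ± 0.453% of their summed level in CD38+ control, 56.6 ± 1.47% in CD90+ control and 65.0 ± 1.75% with GATA2 overexpression. CBX6 made up 56.5 ± 2.18%, 17.2 ± 2.05% and 13.0 ± 0.456%, so that CBX6 had the highest level of the 4 in CD38+ control and CBX2 in both CD90+ groups. No groups overlapped for either gene. CBX8 made up 15.5 ± 3.39%, 19.7 ± 1.14% and 18.5 ± 1.75%, with overlapping groups. CBX7 made up 5.65 ± 0.852%, 6.59 ± 1.42% and 3.49 ± 0.495%, lowest in the overexpression libraries and overlapping between the control groups. The summed level of the 4 was 6.95 ± 0.157, 7.004 ± 0.0804 and 8.56 ± 0.271 CPM per kilobase. Shares are within a library, do not depend on scaling and are given as a description.

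**Figure D4:**
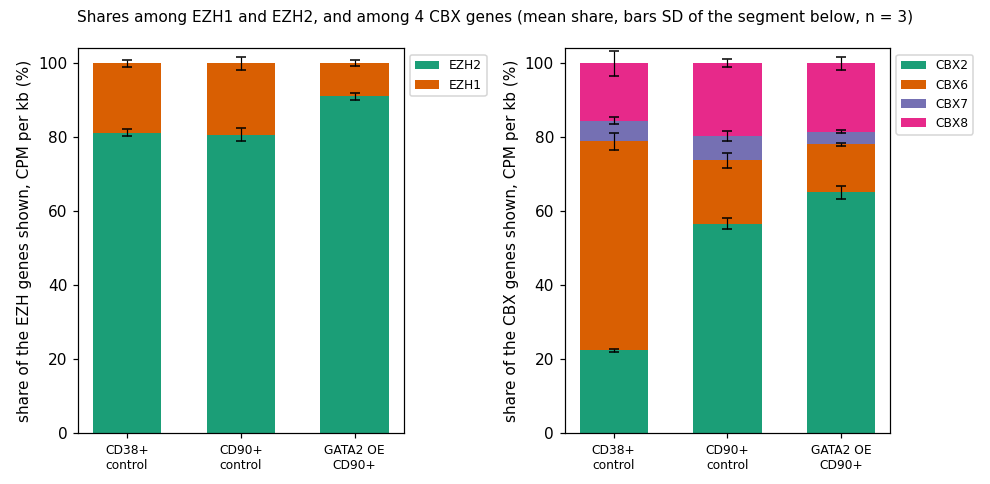
Mean share (vertical axes, percent of summed CPM per kilobase of exon) of EZH2 and EZH1 on the left and of CBX2, CBX6, CBX7 and CBX8 on the right, in the 3 groups, with the SD over 3 libraries at the top of each segment. EZH2 reaches 91.0% with GATA2 overexpression, and CBX2 goes from 22.4% in CD38+ control to 65.0% there while CBX6 goes from 56.5% to 13.0%.

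In all, 7 of the 9 genes were called between CD90+ and CD38+ control cells (4 higher and 3 lower in CD90+), against 80.4% of all tested genes (41.1% higher and 39.3% lower). Between the CD90+ groups 6 of the 9 were called (3 higher, 3 lower), against 77.6% of all tested genes (38.0% higher and 39.6% lower), and 8 of the 9 against CD38+ control cells (3 higher, 5 lower), against 83.2% (43.3% higher and 39.9% lower). These shares are near the background of a data set in which most genes differ, so the counts are no result about Polycomb genes. The median log2 fold changes of the 9 were 0.23, 0.02 and -0.39, and those of all tested genes 0.03, -0.04 and 0.07. The libraries did not overlap for 7 of the 9 genes in each comparison, against 82.8%, 80.4% and 83.0% of all tested genes. The comparisons share libraries and are not independent of each other.

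The order of the 9 genes per exon length changed between the groups. In CD38+ control EZH2 and SUZ12 were highest (12.4 ± 0.154 and 12.1 ± 0.331 CPM per kilobase) and overlapped, followed by BMI1 (7.23 ± 0.39), EED (6.20 ± 0.246) and CBX6 (3.92 ± 0.12). In CD90+ control EZH2 stood alone at 14.5 ± 0.357, above SUZ12 (7.19 ± 0.142), EED (6.79 ± 0.103) and CBX2 (3.96 ± 0.0734), and BMI1 came after EZH1. With GATA2 overexpression EZH2 reached 20.9 ± 1.2, and EED (5.74 ± 0.335) and CBX2 (5.57 ± 0.256) overlapped. CBX7 was last in all 3 groups, at 0.392 ± 0.053, 0.463 ± 0.104 and 0.298 ± 0.0377.

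Other PRC1 genes and the enzymes that act against Polycomb marks were read from the same fit. Of 16 canonical PRC1 genes 5 rose and 6 fell with GATA2 overexpression against control CD90+ cells. Of all tested genes 38.0% were higher and 39.6% lower in that comparison, so these counts are no result about the list. RNF2, the RING ligase at the core of PRC1, rose 1.56-fold to 63.3 ± 0.342 CPM, PHC1 rose 1.34-fold, and PHC3 fell 1.64-fold. The other RING ligase gene, RING1, was counted at 0.544 ± 0.341 CPM there, with libraries from 0.155 to 0.788. Whether that low count reflects its level or how reads were mapped and assigned was not tested. Between the control fractions 6 of the 16 rose and 5 fell in CD90+ cells (11 and 4 with library size only), among them PHC2, which fell 1.61-fold from 164 ± 2.95 CPM. Of 20 variant PRC1 genes, which act without a CBX protein, 4 rose and 12 fell between the control fractions, but 10 rose and 4 fell when scaled by library size only, so no direction is given for that list. KDM2B, which brings a variant PRC1 to CpG-rich DNA, rose 2.19-fold to 76.0 ± 0.495 CPM in CD90+ control cells and fell 3.03-fold to 25.1 ± 0.611 CPM with overexpression, to below the 34.7 ± 1.96 CPM of CD38+ control. PCGF5 fell 2.23-fold from CD38+ to CD90+ control cells.

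Both demethylases of histone H3 lysine 27 that were listed were highest in CD90+ control, as EZH1 was. KDM6A rose 1.40-fold from 27.01 ± 1.63 to 37.9 ± 1.44 CPM between CD38+ and CD90+ control cells and fell 1.69-fold to 22.4 ± 0.542 with GATA2 overexpression. KDM6B rose 1.74-fold to 29.8 ± 1.92 CPM and then fell 1.40-fold to 21.3 ± 0.907. All 4 changes were called and kept their direction under the 3 other scalings. In the complex that removes the PRC1 mark (PR-DUB), 8 of 11 genes fell and 1 rose with overexpression against control CD90+ cells (median log2 fold change -0.33). OGT, an enzyme that attaches a sugar to proteins, fell 1.97-fold, and ASXL1 and ASXL3, partners of the deubiquitinase, fell 1.47-fold and 1.51-fold. The gene of the deubiquitinase itself, BAP1, was named after its values were seen. Its libraries overlapped, at 26.6 to 33.4 CPM in control and 25.9 to 27.4 in overexpression CD90+ cells. The 3 HP1 genes (CBX1, CBX3, CBX5), chromobox proteins of heterochromatin outside Polycomb, all fell from CD38+ to CD90+ control cells and all rose with overexpression (2 of 3 with library size only). Trithorax genes, which counter Polycomb, had 3 higher and 9 lower of 15 in CD90+ against CD38+ control cells, but 12 and 1 with library size only, and no direction is given.

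Genes on a list of those often held silent by Polycomb in stem cells were mostly higher in CD90+ than in CD38+ control cells, with 17 of 25 tested genes higher and 4 lower (median log2 fold change 1.59). Their summed level over 26 genes went the other way, from 1339 to 1407 CPM in CD38+ control to 677 to 687 in CD90+ control, and was 398 to 416 with GATA2 overexpression. In CD38+ control most of that sum was CDKN1A, a cell cycle inhibitor gene, at 1293 ± 34.5 CPM there, 433 ± 1.42 in CD90+ control and 129 ± 1.04 with overexpression. The genes with the largest rises at a mean of 5 CPM or more were HAND1, a mesoderm and heart transcription factor gene (22.9 ± 0.754 against 0.079 ± 0.0714 CPM), and MEIS1, a stem cell transcription factor gene (131 ± 3.63 against 15.7 ± 0.357 CPM). The cell cycle inhibitor CDKN2A, the target through which BMI1 is best known, was at 8.21 ± 0.838 CPM in CD38+ control, 2.14 ± 0.0848 in CD90+ control and 5.15 ± 1.14 with GATA2 overexpression, falling 3.83-fold and then rising 2.40-fold. CDKN2A and BMI1 thus had the same order of groups. With overexpression 18 of the 25 fell and 3 rose against control CD90+ cells (median -1.03). Mesenchymal markers moved in the same libraries (13 of 16 rose and 1 fell from CD38+ to CD90+ control, and 2 rose and 13 fell with overexpression), with a summed level over 16 genes of 1934 to 1945 CPM in CD90+ control, 1022 to 1066 in CD38+ control, where POSTN was at 0 counts, and 991 to 1067 with overexpression. VIM alone was at 873, 549 and 614 CPM in CD38+ control, CD90+ control and overexpression cells, and 11 of the 16 genes were higher and 4 lower with overexpression than in CD38+ control (median log2 fold change 2.36), although the sums were alike. Their part in the target gene differences was not tested.

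The genes whose pattern over the 9 libraries was nearest to that of a member were found by the root mean square difference of log2 CPM, after centring each gene, among 10612 other genes with a mean of at least 5 CPM. For EZH2 these were HIBADH (0.0381), COPS7B (0.0414) and EIF2D (0.0439), and for EZH1 USP53 (0.0781), SIRT1 (0.0831) and NUP160 (0.0873). For BMI1 they were ASF1B (0.0509), STXBP2 (0.0537) and RNF167 (0.0581). For CBX7 the nearest were GOLGA3 (0.17), ATM (0.173) and MEMO1 (0.178), farther off than those of the other 3 genes.

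The labels were checked against GATA2, CD38 and THY1. GATA2 was at 363 to 388 CPM in the overexpression libraries, 85.9 to 89.5 in CD90+ control and 551 to 581 in CD38+ control, so the overexpression cells had more GATA2 than CD90+ control cells and less than CD38+ control cells. CD38 was at 119 to 124 CPM in CD38+ control and 1.74 to 4.81 in the 6 other libraries. THY1 had 0 counts in the 3 CD38+ libraries, which allows up to 0.0261 CPM at 3 counts over the group, and was at 2.80 to 5.09 CPM in the 6 CD90+ libraries. Totals ran from 37500192 to 47261093 counts per library. TMM factors were 0.876 to 0.877 in CD38+ control, 1.16 to 1.17 in CD90+ control and 0.978 to 0.981 with overexpression, so fold changes between groups depend on the scaling: with library size only the median log2 fold change of all tested genes was 0.44 between the control fractions and -0.29 between the CD90+ groups. Of the genes called, 71.2% were then on the higher side between the control fractions (64.3% with upper-quartile factors) against 51.2% with TMM, and 35.5% between the CD90+ groups against 49.0%.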

How the data were processed

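RNA from 9 libraries in 3 groups of 3 was analysed. The authors deposited read counts as integers, 1 row per gene, made with HISAT2 and featureCounts on hg38 per the submitters' processing notes. The sources used here do not give versions, annotation, the handling of shared reads or whether strand was used. All columns were used, and 80 genes had 0 counts throughout. Replicates differed by 3.96 to 7.84 chi-square per degree of freedom (pairs with at least 20 counts), so none was a duplicate.

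The test was edgeR 4.0.16 (R 4.3.3), quasi-likelihood, with TMM factors, filterByExpr (minimum count 10, minimum total 15) and group means over all 9 libraries, with a threshold of 0.05 on p adjusted by Benjamini-Hochberg over all 16232 tested genes. SE is the log2 fold change over the square root of F, and 95% intervals are normal intervals from it. Counting limits cover counting error only. The fit was tested on simulated data. Exon lengths and positions are from GENCODE release 29, promoters from RefSeq (GRCh38.p14, 7 of 9 members matched). The annotation used by the authors may differ.

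The members and lists were chosen with earlier results of these data known. Of 15 lists with 223 symbols, 221 matched the table, 1 matched by an older symbol and 1 was not analysed here. Named genes were all members, any gene of the PRC2, canonical PRC1 and demethylase lists, and up to 3 called genes with the largest change each way in other lists at a mean of at least 5 CPM, and the 3 nearest patterns for 4 members. Alternatives were RLE, library size and upper-quartile scaling, other filters, DESeq2 1.42.0, limma 3.58.1 voom, a fit on 2 groups, a replicate block and leaving out each library. Other lengths for shares were added after seeing the data. Results on 1 gene are not reported here, and CBX shares are over the 4 CBX members only, a set chosen after seeing the data.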

Additional observations from a re-analysis of the deposited data

How the results depend on the processing

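Of 27 member differences, 19 kept their direction and side of the threshold under all 18 alternatives, and of 486 values 450 did. The exceptions were small differences. CBX8 between the control fractions was called with RLE factors (log2 fold change 0.40), library size only (0.76), upper-quartile factors (0.61) and no filter (0.36). It was also called with at least 1 CPM in 3 libraries (0.43), DESeq2 (0.40), voom (0.36) and a fit on 2 groups (0.41). Without 1 library it ran from 0.21 to 0.55, and of these fits only that without CD38+ control replicate 3 (0.55) called it. Between the same fractions CBX7 was called at 0.65 with library size only and 0.50 with upper-quartile factors, and EED ran from 0.11 to 0.16 without 1 library. Between the CD90+ groups SUZ12 turned to -0.034 with RLE factors, -0.23 with library size only, -0.10 with upper-quartile factors, -0.080 with at least 1 CPM and -0.034 with DESeq2. CBX6 was called there at -0.36, -0.23 and -0.21 (library size only, upper-quartile, at least 1 CPM), and CBX8 turned to -0.048 with library size only. Between overexpression and CD38+ control EED was at 0.051 with library size only, 0.038 with upper-quartile factors, -0.10 with no filter, -0.11 with DESeq2 and -0.11 in a fit on 2 groups, and -0.16 to -0.071 without 1 library, while CBX7 ran from -0.50 to -0.30 and was called without CD38+ control replicate 3 (adjusted p = 0.0456). The cause was not tested.

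The EZH2 to EZH1 ratio was 2.81, 2.73 and 6.61 in raw counts and 3.57, 3.46 and 8.40 with the length of the longest transcript, in CD38+ control, CD90+ control and overexpression cells. Its log2 difference between the control fractions ran from -0.14 to 0.0050 without 1 library, and turned without CD90+ control replicate 3 (0.0050) or CD38+ control replicate 3 (0.0015). With the longest transcript CBX2 made up 21.3%, 55.2% and 64.6% of the 4 CBX genes and CBX6 57.5%, 17.9% and 13.8%.

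The replicate numbers did not pair the libraries. Deviations from group means of same-numbered libraries correlated at -0.029 to 0.0256, and a library correlated best with its own number in 3 of 18 cases. With the replicate block 12889, 12384 and 13347 genes were called in the 3 comparisons, against 13056, 12602 and 13498, and no member changed its call. Taken within numbers as a replicate block, the log2 differences of the ratio were the same, with exact permutation p = 0.75, 0.25 and 0.25, of which 0.25 is the smallest 3 numbers allow. CBX7 and CBX8 had the fewest counts of the 9 genes, which limits what can be seen of them.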
